A study of Mus musculus with 16 samples.

Results

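The naive-state transcription regulators are factors that mouse ES cells express while they hold the ground state of the early epiblast. They were taken as the 9 genes Esrrb, Tbx3, Tcl1, Zfp42, Tcfcp2l1, Nr0b1, Nr5a2, Prdm14 and Gbx2, and every probe whose gene name in the array files was one of these was used. Of the 9 genes, 8 had such a probe and Prdm14 was not analysed here. The 8 genes had 13 of the 41174 probes of the array, and 12 of these were among the 31415 probes with a signal well above background somewhere in the 16 arrays. The exception was the second Tbx3 probe, which was well above background on 0 of 16 arrays.

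Each of the 16 arrays held the Cy3-labelled RNA of 1 culture. MEF was 1 sample of embryonic fibroblasts of C57BL/6 mice. The ES group held the lines B6ES (C57BL/6) and TT2 (an F1 of C57BL/6 and CBA), and the retroviral iPS group held the line 20D17 (C57BL/6 x DBA), made with retrovirus vectors. The other 12 cultures came from C57BL/6 MEFs that had received a human artificial chromosome (HAC) by fusion with microcells, together with mimics of miR-294 and miR-295. The 4 iHAC1-iPS samples were clones 1-A3, 1-B, 1-C3 and 1-D6, and carried iHAC1, with 2 copies each of Klf4, c-Myc, Sox2 and Oct4 cDNAs, all driven by the broadly active CAG promoter. The 4 iHAC2-iPS samples were clones 2-B1, 2-C6, 2-E and 2-N, and carried iHAC2, which adds 2 copies of Oct4 and a hairpin against p53. Cells that had lost the vector were sorted from each of these clones, giving F-B1 from 2-B1, F-C5 from 2-C6, F-E4 from 2-E and F-N7 from 2-N, the 4 iHAC-free iPS lines. Replicates were therefore separate clones or lines, an iHAC-free line shared its origin with 1 iHAC2-iPS clone, and MEF and 20D17 had no replicate, so no test was made with either. The question was in which order, and how far, these regulators were switched on from MEF to ES cells.

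In mouse ES cells, LIF acting through Stat3, Wnt signalling acting through the relief of Tcf7l1, and the factors Oct4 and Sox2 hold a network of transcription factors active that is shut off when cells pass to the primed state of the later epiblast. Esrrb and Nr5a2 are nuclear receptors that bind DNA as single molecules, Nr0b1 (Dax1) is a nuclear receptor relative without a classical DNA-binding domain, Tcfcp2l1 (current symbol Tfcp2l1) is a grainyhead-family factor downstream of LIF, Tbx3 is a T-box factor, Gbx2 is a homeobox factor that responds to Stat3, and Zfp42 (Rex1) is a zinc-finger protein used as a marker of the naive state. Tcl1 is not a DNA-binding factor but a co-activator of the kinase Akt, and is controlled by Oct4.

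Levels are given as log2 of the background-subtracted spot intensity minus the 75th percentile of the same array, so that a level of 0 is the signal at that percentile, and they are compared only between arrays and never between genes. Where a gene had several probes, the brightest by its 16-array mean was used. A value was called dim where the scanner software did not mark the probe as well above background, and a dim value has no order among other dim values. The share of spots well above background was 54.2% to 65.8% per array and 0 spots were saturated, and the number of arrays limits the precision. MEF, ES, 20D17 and iHAC1-iPS arrays were scanned on 1 day and iHAC2-iPS and iHAC-free iPS arrays on another, with 4 arrays on each of 4 slides, so in comparisons between those 2 sets the scan session and the group cannot be told apart. The gene aimed at by the hairpin of iHAC2, Trp53, had 2 probes. On the first the levels were 0.91 to 1.18 in iHAC1-iPS, 0.55 to 1.38 in iHAC2-iPS and 0.87 to 1.86 in iHAC-free iPS, and the difference of iHAC1-iPS minus iHAC2-iPS was 0.12 ± 0.24 (limma adjusted p = 0.708). On the second the levels were 0.81 to 1.28 in iHAC1-iPS, 0.15 to 0.65 in iHAC2-iPS and 0.15 to 0.34 in iHAC-free iPS. There iHAC2-iPS did not overlap iHAC1-iPS, and the difference of iHAC1-iPS minus iHAC2-iPS was 0.50 ± 0.15 (limma adjusted p = 0.0202), less than 2-fold. Trp53 was thus not called lower in iHAC2-iPS than in iHAC1-iPS on either probe. On the first probe it was called lower than in ES in both groups, by -1.05 ± 0.30 in iHAC1-iPS (limma adjusted p = 0.0269) and -1.17 ± 0.30 in iHAC2-iPS (limma adjusted p = 0.0296), and on the second it was called in neither (0.20 ± 0.18 and -0.30 ± 0.18).

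The ES lines and the clones that carried a HAC were kept on layers of fibroblast feeder cells, and the cells sorted for loss of iHAC2 were plated onto such layers. All 12 fibroblast markers of a list were well above background on every array, and their summed level (linear, in units of the array's 75th percentile) was 350 in MEF, 57.3 and 160 in the ES lines, 294 in 20D17, 202 to 494 in iHAC1-iPS, 101 to 307 in iHAC2-iPS and 169 to 318 in iHAC-free iPS. In iHAC1-iPS 4 of the 12 were called higher than in ES, where 6.88% of all probes were called higher, and these were the matrix genes Col1a1 (2.14 ± 0.53), Col1a2 (1.70 ± 0.50), Col3a1 (2.68 ± 0.69) and Fbn1 (1.63 ± 0.50). Among the neural markers, the transcription factor gene Pax6 was called higher in iHAC1-iPS than in ES (2.50 ± 0.53), and so was Neurog2, which was dim in both ES lines and in 1-B and at -1.18 in 1-A3, -4.99 in 1-C3 and -3.69 in 1-D6. Of 6 primitive endoderm markers 1 was called lower in iHAC1-iPS, Sox7, and Gata4 was dim on every array. Of 5 trophectoderm markers 2 were called lower, where 7.39% of all probes were: Cdx2, dim in 1-A3 and 1-B, and Elf5, which was dim in all 4 clones and in B6ES, so that its call rests on TT2 alone being above background. These genes were named after their values were seen. In such bulk samples fewer cells of a type and less RNA per cell cannot be told apart, and the part of other cells in the results below was not tested.

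The probe stretches that measured each gene are shown so that the values can be traced to a transcript. Positions are those of the array files on mm9, and the features of the transcripts at those positions were not analysed here. The first 30 bases of each 60-base probe are given in lower case, except that for Zfp42 the 30 bases that hold the overlap of its 2 probes are given, with the 20 shared bases in capitals.
Esrrb (probe at chr12:87862389-87862448, plus strand): ttctgataatgacgttgtggctggaatgac
Tbx3 (chr5:120134473-120134532, plus strand): ggcatcttactaacccatgtgaggttttca
Tcl1 (chr12:106455424-106455483, minus strand): agatcagccatcactcaaggtgttgtgcct
Tcfcp2l1 (chr1:120581646-120581705, plus strand): gtacctgaaataaagcatattttgcacttg
Nr0b1 (chrX:83441169-83441228, plus strand): gagtgtggtactaggctaacaagctaattt
Nr5a2 (chr1:138740903-138740962, minus strand): atgcaaagacagtgattctgcatatggcct
Gbx2 (chr1:91825013-91825072, minus strand): gagagtatattcattagacgggcttaaagg
Zfp42, probe used (chr8:44380667-44380726, minus strand): TGTGCTATTGAAGGGGATGGggacttttgc
Zfp42, second probe (chr8:44380707-44380778, minus strand): ccttactataTGTGCTATTGAAGGGGATGG
Because they share these bases, the 2 Zfp42 probes are not independent measurements. Their levels ran in parallel over the 16 arrays (r = 0.99, a description), as did those of the Tcfcp2l1 probe used and its 3 dimmer probes (r = 0.97 to 1.00).

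In MEF the levels of Esrrb, Zfp42 and Nr0b1 were dim, and those of Tcl1, Tcfcp2l1, Nr5a2 and Gbx2 were low but well above background. In ES cells 7 of the 8 genes stood at least 4-fold above MEF, where 7.33% of all probes did so. The intensity in ES cells was at least 1.05e+03-fold higher for Zfp42, at least 786-fold higher for Nr0b1 and at least 494-fold higher for Esrrb, bounds that take the lowest signal well above background in place of the dim MEF value. The ES lines were within 2-fold of each other for 6 of the 8 genes, as for 89.9% of all probes, the exceptions being Zfp42 (gap of 2.29) and Nr5a2 (1.04). The intensity in ES cells was 243-fold that of MEF for Tcfcp2l1, 42.2-fold for Nr5a2, 33.6-fold for Gbx2 and 27.7-fold for Tcl1. Tbx3, which is also active in mesenchymal cells of the embryo, was the exception, with a level of 2.94 in MEF and a mean of 2.02 in ES. There was 1 MEF array, so these folds have no replicate check.

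**Figure D1:**
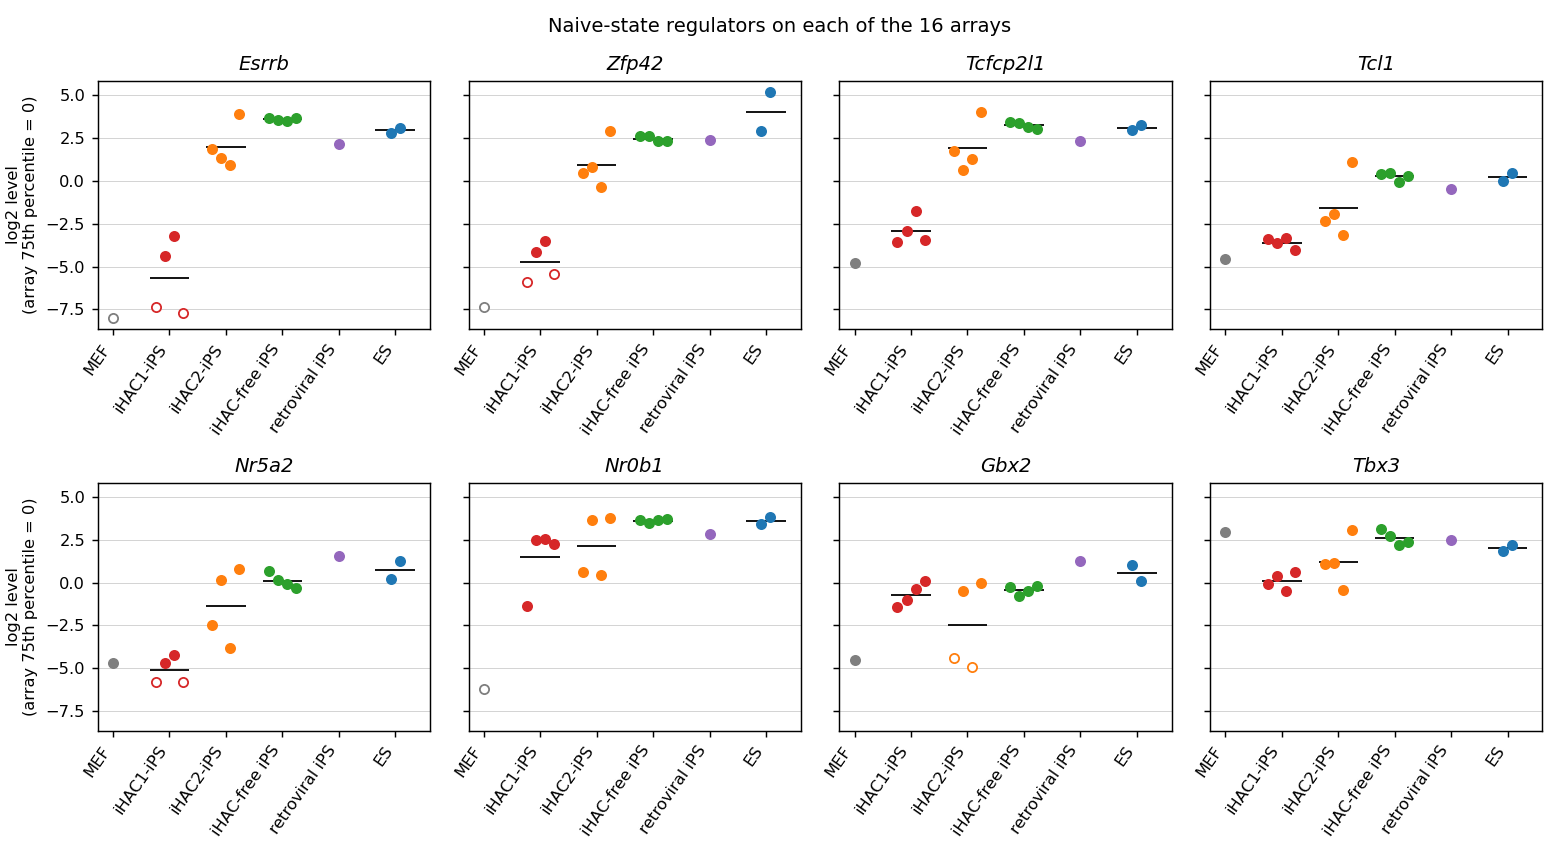
Level of each regulator on each of the 16 arrays (y axis, log2 relative to the array's 75th percentile) by group (x axis). Filled points were well above background, open points were not, and black lines are group means. Tcfcp2l1 climbs from MEF through iHAC1-iPS and iHAC2-iPS, and Zfp42 and Esrrb climb from iHAC1-iPS to iHAC2-iPS. In MEF and in 2 of 4 iHAC1-iPS clones Zfp42 and Esrrb are dim, and these values have no order. Nr0b1 is already high in 3 of 4 iHAC1-iPS clones, and Tbx3 is higher in MEF than in the 2 ES lines.

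Esrrb, Zfp42, Tcfcp2l1, Tcl1 and Nr5a2 were the genes with low levels in all 4 iHAC1-iPS clones. Esrrb was dim in 1-A3 (-7.36) and 1-D6 (-7.73) and well above background in 1-B (-4.40) and 1-C3 (-3.22), against 2.83 in B6ES and 3.07 in TT2. All 4 clones lay far below both ES lines, and the clone with the highest Esrrb was 1-C3.

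Zfp42 followed Esrrb closely. It was dim in 1-A3 (-5.88) and 1-D6 (-5.42) and at -4.14 in 1-B and -3.48 in 1-C3, against 2.89 in B6ES and 5.18 in TT2. The order of the 4 clones matched that of Esrrb in that 1-A3 and 1-D6 were dim and 1-C3 was highest, while the ES lines themselves differed by 2.29.

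Tcfcp2l1 was well above background on every array. Its levels in 1-A3, 1-B, 1-C3 and 1-D6 were -3.59, -2.92, -1.78 and -3.47, against -4.81 in MEF, 2.98 in B6ES and 3.25 in TT2. All 4 clones lay above MEF by at least 2-fold and far below ES.

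Among the genes well above background in MEF, Tcl1 and Nr5a2 were nearest to the MEF level. Tcl1 was at -3.40, -3.65, -3.31 and -4.06 in the same clones, against -4.54 in MEF, 0.02 in B6ES and 0.48 in TT2. Nr5a2 was dim in 1-A3 (-5.78) and 1-D6 (-5.83) and at -4.68 in 1-B and -4.23 in 1-C3, against -4.68 in MEF, 0.20 in B6ES and 1.24 in TT2. For Nr5a2, no iHAC1-iPS clone was more than 2-fold above MEF.

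In the limma fit these 5 genes were called lower in the iHAC1-iPS clones than in the ES lines, a call meaning an adjusted p under 0.05 over all probes and at least 2-fold, where 7.39% of all probes were called lower. The log2 differences were -8.63 ± 1.11 for Esrrb (SE, 4 clones against 2 lines, limma adjusted p = 0.000437), -8.76 ± 0.88 for Zfp42 (limma adjusted p = 0.000104), -6.05 ± 0.74 for Tcfcp2l1 (limma adjusted p = 0.000314), -5.84 ± 1.03 for Nr5a2 (limma adjusted p = 0.00259) and -3.86 ± 0.83 for Tcl1 (limma adjusted p = 0.0074). The 3 other Tcfcp2l1 probes and the second Zfp42 probe were called lower as well, the latter at least 292-fold. The median difference of the 8 genes was -4.85, against 0.02 over all probes, and for 8 of 8 the 2 groups did not overlap with iHAC1-iPS the lower, which held for 25.5% of all probes. None of the 8 genes (0) had all 4 clones within 2-fold of the ES mean, as 57.7% of all probes had.

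The size of these differences depended on the background correction, and several of the low values were dim. With normexp correction (offset 50) they were -5.54 for Esrrb, -6.48 for Zfp42, -5.15 for Tcfcp2l1, -3.50 for Nr5a2 and -2.70 for Tcl1, and all 5 calls held. The call of Tcl1 was lost without B6ES (limma adjusted p = 0.0533) and without TT2 (limma adjusted p = 0.0576), where the remaining ES line is taken to vary like the other groups. Esrrb was at -9.45 without 1-C3 and -7.95 without 1-D6, and Zfp42 at -9.91 without B6ES and -7.62 without TT2. On the slide that held 1-D6 and both ES lines, the differences were -10.68 for Esrrb, -9.46 for Zfp42, -6.59 for Tcfcp2l1, -6.54 for Nr5a2 and -4.31 for Tcl1. The clones with dim Esrrb, 1-A3 and 1-D6, were those with the highest summed fibroblast marker level, 415 and 494 against 261 in 1-B and 202 in 1-C3, and the part of this in the result was not tested.

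Nr0b1 and Gbx2 behaved differently in the same clones. Nr0b1 was at 2.50, 2.55 and 2.28 in 1-B, 1-C3 and 1-D6 and at -1.36 in 1-A3, against a dim -6.24 in MEF, 3.42 in B6ES and 3.82 in TT2. Its mean in iHAC1-iPS was at least 180-fold above MEF. All 4 clones were well above background, unlike MEF, and 1-D6, the lowest of the other 3, was at -1.34 relative to the ES mean. The mean of iHAC1-iPS was at least 4-fold above MEF for 4 genes, Nr0b1, Gbx2, Esrrb and Zfp42, and for 3.2% of all probes, but for Esrrb and Zfp42 the MEF value and those of 1-A3 and 1-D6 were dim.

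Gbx2 was at -1.45, -1.04, -0.37 and 0.09 in 1-A3, 1-B, 1-C3 and 1-D6, against -4.50 in MEF, 1.03 in B6ES and 0.12 in TT2. The highest clone, 1-D6, was next to TT2, and every clone was at least 2-fold above MEF, as was also the case for Zfp42 (with dim values), Tcfcp2l1 and Nr0b1 and for 7.77% of all probes. Neither gene was called: the differences from ES were -2.13 ± 1.15 for Nr0b1 (limma adjusted p = 0.212) and -1.27 ± 1.16 for Gbx2 (limma adjusted p = 0.48). With these errors a difference of several fold could not be told from none.

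Tbx3 was lower in iHAC1-iPS than in either MEF or ES. Its levels were -0.05, 0.39, -0.50 and 0.63 in 1-A3, 1-B, 1-C3 and 1-D6, against 2.94 in MEF, 1.84 in B6ES and 2.21 in TT2. Each clone lay below MEF, and none overlapped the ES lines. The difference from ES was -1.91 ± 0.68 (limma adjusted p = 0.0666) and was not called in the fit of all 16 arrays, but was with only iHAC1-iPS and ES in the fit (limma adjusted p = 0.0212).

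**Figure D2:**
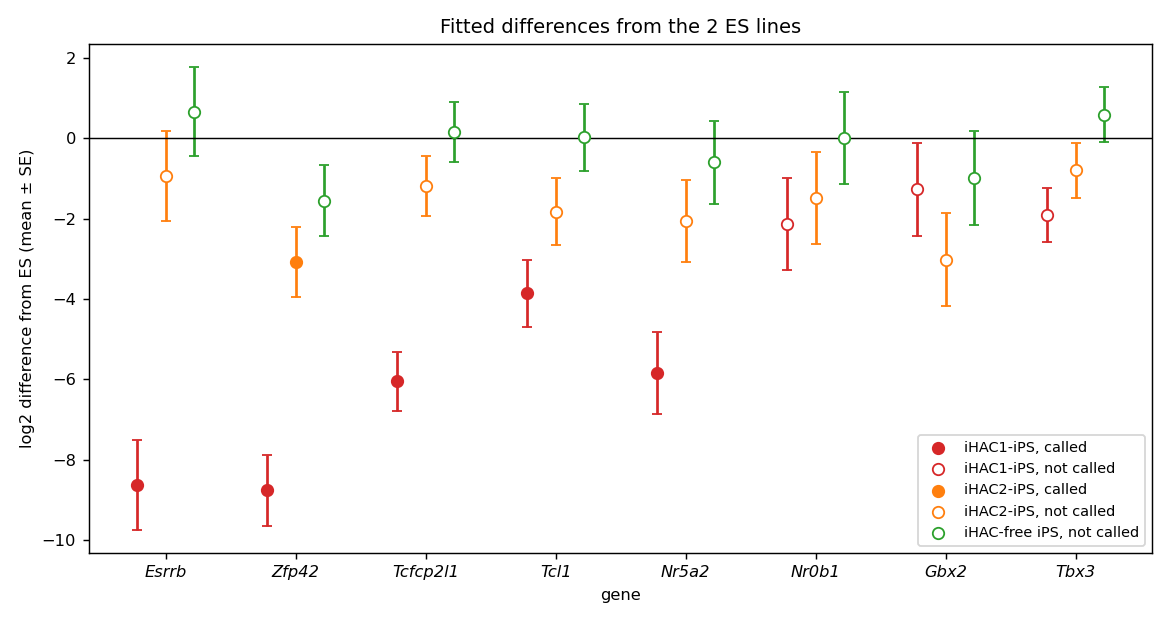
Fitted log2 difference from the 2 ES lines (y axis, with the standard error as bars) for each regulator (x axis) in iHAC1-iPS, iHAC2-iPS and iHAC-free iPS, filled where called. The 5 called genes of iHAC1-iPS lie between -3.86 and -8.76, Zfp42 is the 1 called gene of iHAC2-iPS, and the iHAC-free values lie between -1.55 and 0.66.

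Stretches of 250 bases before the start of transcription are shown for members that were low together in iHAC1-iPS (Zfp42, Tcfcp2l1 and Tcl1) and for those that were not (Nr0b1 and Gbx2). They are RefSeq sequences on GRCm38.p6, for which 7 of the 9 genes matched by symbol, with 9 starts in all, and Tbx3 and Prdm14 did not. The motifs searched on both strands were AAGGTCA, the extended half-site that Esrrb and Nr5a2 bind, ATGCAAAT, the octamer that Oct4 binds, TTCCNGGAA, a Stat site, CCACCC, a site of the Klf factors, and TATAAA, the TATA box. Matches are in capitals.
Zfp42 (chr8:43307010-43307259, minus strand): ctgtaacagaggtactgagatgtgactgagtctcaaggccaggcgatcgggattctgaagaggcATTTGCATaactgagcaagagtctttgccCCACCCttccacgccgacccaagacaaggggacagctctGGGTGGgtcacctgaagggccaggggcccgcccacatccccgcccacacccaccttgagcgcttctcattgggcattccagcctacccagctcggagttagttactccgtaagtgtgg
Tcfcp2l1 (chr1:118627695-118627944, plus strand): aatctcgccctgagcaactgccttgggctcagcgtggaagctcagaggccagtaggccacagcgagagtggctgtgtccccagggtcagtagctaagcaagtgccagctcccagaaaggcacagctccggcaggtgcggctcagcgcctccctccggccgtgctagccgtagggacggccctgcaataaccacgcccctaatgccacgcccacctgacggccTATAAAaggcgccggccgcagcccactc
Tcl1 (chr12:105222738-105222987, minus strand): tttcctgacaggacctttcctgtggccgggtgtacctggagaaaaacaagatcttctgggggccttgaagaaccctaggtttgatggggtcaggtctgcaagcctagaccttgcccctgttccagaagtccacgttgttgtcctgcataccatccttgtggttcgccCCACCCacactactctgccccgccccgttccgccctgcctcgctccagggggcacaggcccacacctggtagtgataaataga
Nr0b1 (chrX:86191525-86191774, plus strand): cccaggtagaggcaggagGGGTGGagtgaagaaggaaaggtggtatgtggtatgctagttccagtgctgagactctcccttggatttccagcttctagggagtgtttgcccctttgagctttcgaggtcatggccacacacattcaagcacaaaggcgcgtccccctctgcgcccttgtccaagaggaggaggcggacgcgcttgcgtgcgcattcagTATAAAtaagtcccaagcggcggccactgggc
Gbx2 (chr1:89931177-89931426, minus strand): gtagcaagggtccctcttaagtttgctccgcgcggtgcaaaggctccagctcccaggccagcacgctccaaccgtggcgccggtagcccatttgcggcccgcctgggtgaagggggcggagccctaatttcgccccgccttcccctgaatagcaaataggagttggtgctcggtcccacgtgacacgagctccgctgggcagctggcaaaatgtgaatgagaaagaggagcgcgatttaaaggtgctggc
The Zfp42 stretch held an octamer on its reverse strand, 186 to 179 bases before the start, and 2 CCACCC matches, 1 on each strand. The octamer stood in 1 of the 9 member stretches and in 1.6% of 32851 mouse promoters of the same length. CCACCC stood in 6 of 9 against 28.1%, TATAAA in 3 of 9 against 12.4%, AAGGTCA in 0 of 9 against 4.08% and TTCCNGGAA in 0 of 9 against 0.913%. The Gbx2 stretch held none of these motifs, and Tcfcp2l1 and Nr0b1 each held TATAAA within 32 bases of the start. A match is a description of the letters and not of a bound site.

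In iHAC2-iPS the levels differed widely between clones, with a median SD of 1.66 over the 8 genes. Esrrb was at 1.86 in 2-B1, 1.35 in 2-C6, 0.94 in 2-E and 3.89 in 2-N, Tcfcp2l1 at 1.73, 0.66, 1.29 and 4.03 in the same order, and Zfp42 at 0.46, 0.80, -0.37 and 2.92. Tcl1 was at -2.34, -1.91, -3.15 and 1.11, and Tbx3 at 1.08, 1.17, -0.42 and 3.06. In all 5 genes 2-N was the highest clone by more than 2-fold and lay above the lower ES line, while 2-B1, 2-C6 and 2-E lay below both ES lines.

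Nr0b1, Nr5a2 and Gbx2 divided the clones another way. Nr0b1 was at 3.68 in 2-C6 and 3.79 in 2-N but at 0.63 in 2-B1 and 0.46 in 2-E. Nr5a2 was at 0.14 and 0.78 in 2-C6 and 2-N but at -2.48 and -3.82 in 2-B1 and 2-E. Gbx2 was at -0.49 and -0.01 in 2-C6 and 2-N but dim at -4.41 in 2-B1 and -4.90 in 2-E, near the MEF level. In 2-B1 and 2-E, Gbx2 was therefore lower than in any iHAC1-iPS clone, although Esrrb, Zfp42, Tcfcp2l1 and Tcl1 were higher there than in each of them.

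Zfp42 was the 1 gene of 8 called lower in iHAC2-iPS than in ES, where 3.27% of all probes were called lower. Its difference was -3.08 ± 0.88 (limma adjusted p = 0.0429). The call was lost without TT2, with a difference of -1.94 (limma adjusted p = 0.313), and also without B6ES (-4.23, limma adjusted p = 0.075), without 2-B1 (limma adjusted p = 0.082), without 2-E (limma adjusted p = 0.0876), with quantile normalization (limma adjusted p = 0.0521) and with only the 2 groups in the fit (limma adjusted p = 0.165), and the difference was -3.74 without 2-N. The second Zfp42 probe was also called lower in the fit of all arrays, at -3.65 ± 0.93 (limma adjusted p = 0.0294), and on it the groups did not overlap. The median difference of the 8 genes was -1.65, against 0.05 over all probes.

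The other 7 genes were lower on average in iHAC2-iPS than in ES but not called. The differences were -0.94 ± 1.11 for Esrrb, -1.19 ± 0.74 for Tcfcp2l1, -0.80 ± 0.68 for Tbx3, -1.48 ± 1.15 for Nr0b1, -1.83 ± 0.83 for Tcl1, -2.06 ± 1.03 for Nr5a2 and -3.02 ± 1.16 for Gbx2. Gbx2 was the 1 gene for which the groups did not overlap on the probe used. There iHAC2-iPS was the lower, as for 16.5% of all probes. None of the 8 genes (0) had all 4 clones within 2-fold of the ES mean, as 50.6% of all probes had. Without 2-N the differences of Tcl1 (-2.72, limma adjusted p = 0.00195), Tcfcp2l1 (-1.89, limma adjusted p = 0.0272) and Gbx2 (-3.84, limma adjusted p = 0.0326) were called, and 4 genes were called in all. Gbx2 was also called without 2-C6 (-3.67, limma adjusted p = 0.0392).

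Between the vectors, the 5 genes that were low in all iHAC1-iPS clones were called lower in iHAC1-iPS than in iHAC2-iPS, where 11.3% of all probes were called lower. The difference of iHAC1-iPS minus iHAC2-iPS was -7.69 ± 0.91 for Esrrb (limma adjusted p = 0.000169), -5.68 ± 0.72 for Zfp42 (limma adjusted p = 0.000238), -4.87 ± 0.60 for Tcfcp2l1 (limma adjusted p = 0.000222), -3.78 ± 0.84 for Nr5a2 (limma adjusted p = 0.00515) and -2.03 ± 0.68 for Tcl1 (limma adjusted p = 0.0342). For these 5 the arrays of the groups did not overlap, as for 18.3% of all probes. The scan session also differed between these groups.

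With normexp correction these values were -4.64, -3.54, -4.01 and -1.93 for Esrrb, Zfp42, Tcfcp2l1 and Nr5a2, all still called, and -1.30 for Tcl1, which was not (limma adjusted p = 0.0637). The call of Tcl1 was also lost without 1-A3 (limma adjusted p = 0.0574), 1-B (0.0607), 1-C3 (0.0513) or 1-D6 (0.0851) and with only the 2 groups in the fit (limma adjusted p = 0.0997). Without 2-N the differences were -7.06 for Esrrb, -5.03 for Zfp42, -4.17 for Tcfcp2l1, -3.07 for Nr5a2 and -1.13 for Tcl1, all called. Esrrb was at -8.51 without 1-C3 and -7.01 without 1-D6, and Nr5a2 at -4.61 without 2-E.

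Tbx3, Nr0b1 and Gbx2 were not called between the vectors, at -1.10 ± 0.56, -0.65 ± 0.94 and 1.76 ± 0.95. Gbx2 was the 1 gene with a higher mean in iHAC1-iPS, and that difference was called without 2-N (2.57, limma adjusted p = 0.0395). Tbx3 was called without 2-E (-1.65, limma adjusted p = 0.019). Without 1-A3 the Nr0b1 difference turned to 0.30.

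After loss of iHAC2 the 4 lines lay close together. All 4 were within 2-fold of the ES mean for 4 of the 8 genes, against 73% of all probes. Esrrb was at 3.69 in F-B1, 3.57 in F-C5, 3.49 in F-E4 and 3.68 in F-N7, slightly above 2.83 and 3.07 in the ES lines. In the same order Tcfcp2l1 was at 3.46, 3.41, 3.16 and 3.06 and Nr0b1 at 3.65, 3.48, 3.66 and 3.73, both in the range of the ES lines or within 0.3 of it. Tcl1 was at 0.41, 0.47, -0.06 and 0.28. The dimmer Tcfcp2l1 probes differed from ES by 0.98 ± 0.68, 0.26 ± 0.78 and -0.21 ± 0.69, none called. On the first and second of these, iHAC-free iPS lay above both ES lines.

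Tbx3 stood at 3.11, 2.74, 2.22 and 2.40, just above the ES lines. Nr5a2 stood at 0.70, 0.15, -0.05 and -0.33, and overlapped them. Gbx2 (-0.27, -0.77, -0.46 and -0.17) and Zfp42 (2.61, 2.62, 2.33 and 2.36) stood below both ES lines. For Zfp42 the 4 lines lay nearer to B6ES (2.89) than to TT2 (5.18).

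Between iHAC-free iPS and ES 0 of the 8 genes were called in the limma fit, where 0.366% of all probes were called in either direction. At an unadjusted p under 0.05 there were also 0 genes by the probe used, against 20.5% of all probes. By that probe the differences ran from -1.55 ± 0.88 for Zfp42 (limma adjusted p = 0.337) to 0.66 ± 1.11 for Esrrb (limma adjusted p = 0.775). Their median was 0.01 against 0.02 over all probes. The second Zfp42 probe was lower still, at -2.17 ± 0.93 (limma unadjusted p = 0.0369, limma adjusted p = 0.214). It was not called, and on it the groups did not overlap. The standard errors come from 1 spread shared by the 6 groups, which takes in that of the iHAC2-iPS clones (SD 1.31 to 2.56 in these genes). With such errors the 0 calls do not show that the genes were equal to ES. All 4 lines were within 2-fold of the ES mean for 4 genes, Esrrb, Tcl1, Tcfcp2l1 and Nr0b1, and for 73% of all probes. The spread among the 4 lines was small: the median SD of the 8 genes was 0.22, against 1.66 in iHAC2-iPS and 0.81 in iHAC1-iPS. Over probes well above background on all 4 arrays the median SD was 0.18, 0.34 and 0.22 in the same order of groups. That set holds no dim values, while the SDs of the members do: Esrrb, Zfp42 and Nr5a2 in iHAC1-iPS and Gbx2 in iHAC2-iPS.

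**Figure D3:**
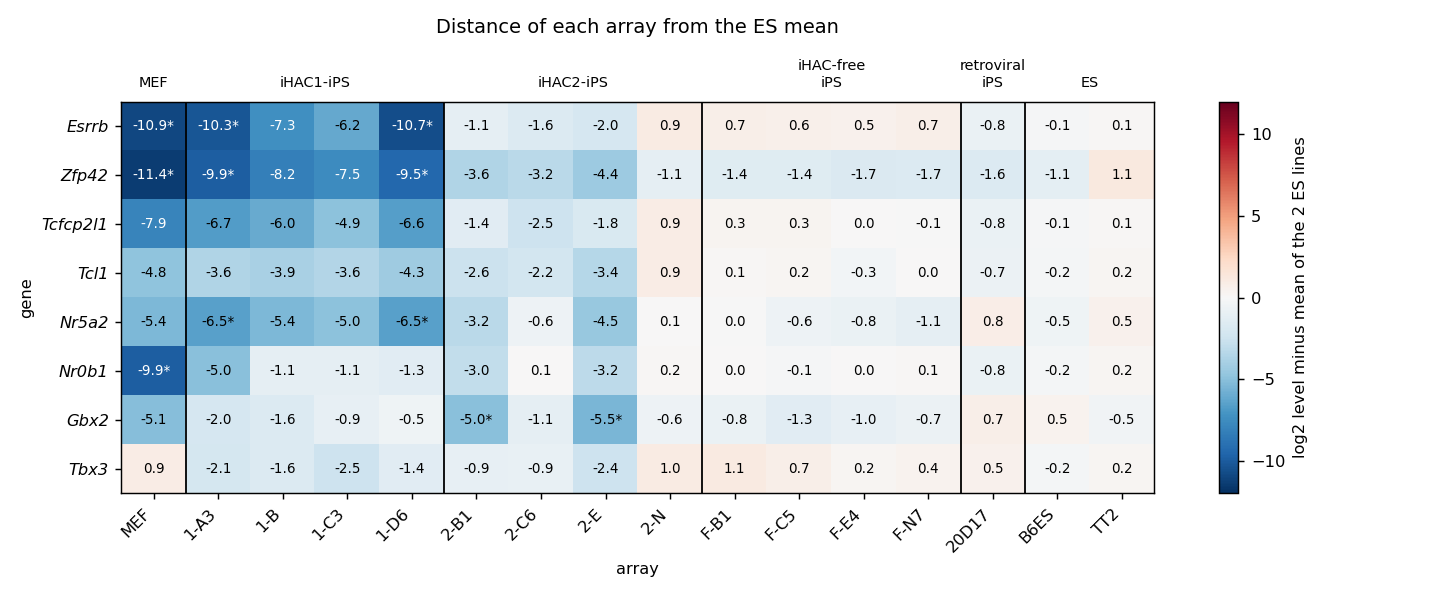
Log2 level of each regulator (rows) on each array (columns) minus the mean of the 2 ES lines, printed in each cell and coloured from blue (below ES) to red (above ES), with an asterisk where the value was dim. Within iHAC2-iPS, 2-N has colours like ES cells and 2-B1 and 2-E show their deepest values in Gbx2, and the 4 iHAC-free lines look alike.

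Each iHAC-free line was then set against the clone that it came from, which shares its origin. In line 2-B1 all 8 genes were at least 2-fold higher in F-B1 than in 2-B1, with a median difference of 2.45, and 7.79% of all probes were that much higher. In line 2-E all 8 were again higher in F-E4 than in 2-E, with a median of 2.90, against 8.12% of all probes. In line 2-C6 5 of 8 were higher in F-C5, with a median of 1.70, against 11.6% of all probes, and Nr0b1 (-0.21), Nr5a2 (0.02) and Gbx2 (-0.28) hardly differed. In line 2-N 0 of 8 were at least 2-fold higher in F-N7, against 9.1% of all probes, and the median difference was -0.61.

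The largest rises were those of Gbx2, by 4.14 in line 2-B1 and 4.43 in line 2-E. Nr5a2 was higher by 3.19 and 3.77 in these lines, and Nr0b1 by 3.02 and 3.19. Esrrb was higher by 1.83, 2.22 and 2.55 in lines 2-B1, 2-C6 and 2-E and by -0.21 in line 2-N. In each of the 8 genes the 4 iHAC-free lines differed less among themselves (SD 0.10 to 0.44) than the 4 iHAC2-iPS clones did (SD 1.31 to 2.56).

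**Figure D4:**
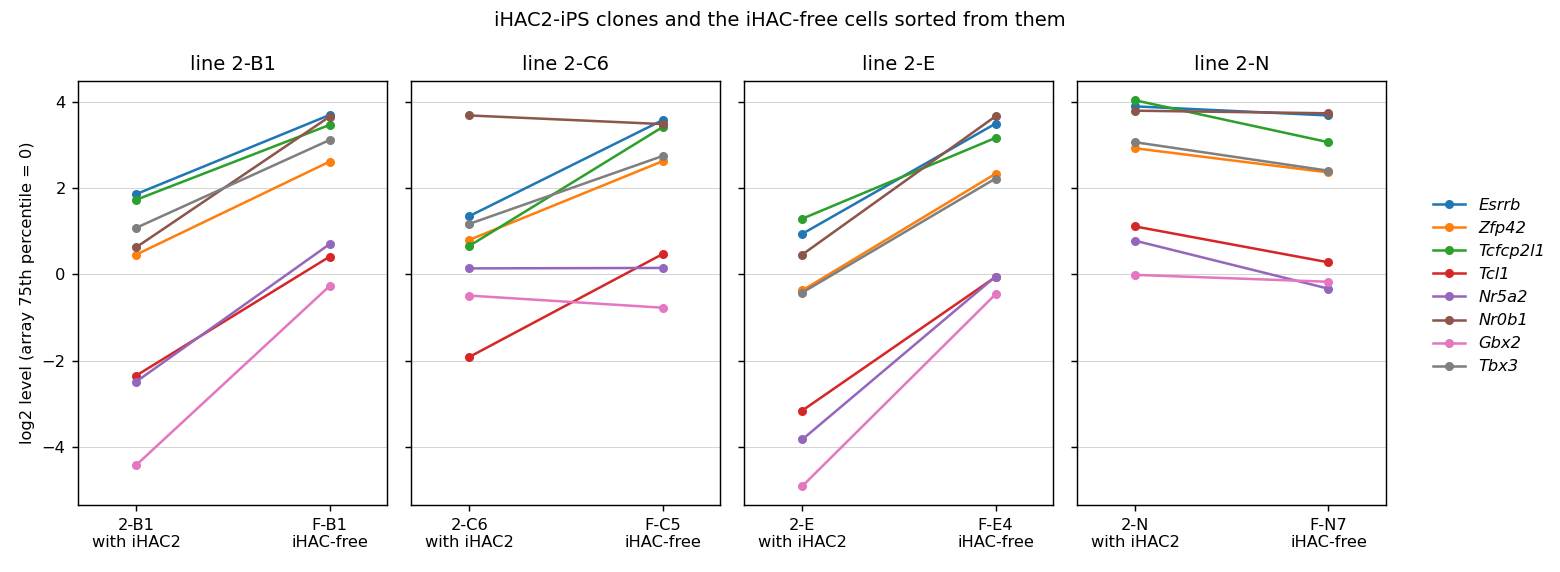
Levels of the 8 regulators (y axis, log2 relative to the array's 75th percentile) in each iHAC2-iPS clone and in the iHAC-free line sorted from it, joined by a line. All 8 genes are higher without the vector in lines 2-B1 and 2-E, 5 of 8 by at least 2-fold in line 2-C6, and 0 of 8 in line 2-N.

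Over the groups, 0 of the 8 genes were called between iHAC2-iPS and iHAC-free iPS, where 0.77% of all probes were called in either direction and 0.554% lower in iHAC2-iPS. For 0 of 8 did the arrays not overlap, as for 4.47% of all probes with iHAC2-iPS the lower. The differences of iHAC2-iPS minus iHAC-free iPS ran from -1.35 ± 0.60 for Tcfcp2l1 (limma adjusted p = 0.26) to -2.03 ± 0.95 for Gbx2 (limma adjusted p = 0.277), their median was -1.51 against 0.05 over all probes, and 3 genes had an unadjusted p under 0.05, as did 18.5% of all probes. With origin from the same clone as a block, the count of members called was also 0, while the count over all probes fell from 242 to 136. Without 2-N 3 genes were called, Tcl1 (-2.74, limma adjusted p = 0.000642), Tbx3 (-2.01, limma adjusted p = 0.0175) and Tcfcp2l1 (-2.05, limma adjusted p = 0.0149). Within slides the differences of all 8 genes had the same sign, from -0.38 for Tcfcp2l1 to -1.99 for Gbx2 on the slide with lines 2-B1 and 2-N, and from -1.49 for Nr0b1 to -2.74 for Tcl1 on that with lines 2-C6 and 2-E. Fibroblast markers had a summed level of 101 in 2-N and 153 to 307 in the other iHAC2-iPS clones, and the part of this in the result was not tested.

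In 20D17 7 of the 8 genes were within 2-fold of the ES mean, as were 89.3% of all probes. Zfp42 was the exception, at 2.39 against a mean of 4.03 and 2.89 in B6ES. Esrrb (2.14), Tcfcp2l1 (2.32), Nr0b1 (2.82) and Tcl1 (-0.49) were 0.74 to 0.81 below the ES mean, and Nr5a2 (1.55), Gbx2 (1.27) and Tbx3 (2.49) were above it. As 20D17 was 1 array of another genetic background, these are values without a test.

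The order of the group means was then read for each gene. In 7 of 8 genes iHAC1-iPS was below iHAC2-iPS and iHAC2-iPS below iHAC-free iPS, an order that 20.2% of all probes showed, and Gbx2 was the exception, with a lower mean in iHAC2-iPS than in iHAC1-iPS. For Esrrb, Tcl1, Tcfcp2l1 and Nr0b1 the full order was MEF, iHAC1-iPS, iHAC2-iPS, 20D17, ES and iHAC-free iPS. For Zfp42 iHAC-free iPS and ES changed places. Esrrb and Zfp42 were dim in MEF and in some iHAC1-iPS clones, and these dim values have no order. Their step from MEF to iHAC1-iPS therefore rests on the clones that were well above background. For Nr5a2 the order was iHAC1-iPS, MEF, iHAC2-iPS, iHAC-free iPS, ES and 20D17, for Gbx2 it was MEF, iHAC2-iPS, iHAC1-iPS, iHAC-free iPS, ES and 20D17, and for Tbx3 it was iHAC1-iPS, iHAC2-iPS, ES, 20D17, iHAC-free iPS and MEF.

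Not every step in these orders was larger than the spread of the arrays. The arrays of iHAC1-iPS and iHAC2-iPS were separate for Esrrb, Zfp42, Tcfcp2l1, Nr5a2 and Tcl1 and overlapped for Nr0b1, Gbx2 and Tbx3. They also overlapped for Tcl1 with quantile normalization and for Nr5a2 with normexp correction. The arrays of iHAC2-iPS overlapped 20D17 for Esrrb, Zfp42, Tcfcp2l1, Tcl1 and Nr0b1, since 2-N, and for Nr0b1 also 2-C6, lay above it. On the probe used, ES and iHAC-free iPS overlapped for Tcl1, Tcfcp2l1, Nr0b1 and Nr5a2. They were separate with iHAC-free iPS the higher for 2 genes, Esrrb and Tbx3, and for 20.6% of all probes, and with iHAC-free iPS the lower for 2 genes, Zfp42 and Gbx2, and for 23.5% of all probes. With normexp correction MEF became the lowest group for Nr5a2, and its dim iHAC1-iPS values have no order.

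By array, the median of the 8 genes relative to the ES mean was -6.66 in MEF, between -5.74 (1-A3) and -4.23 (1-C3) in iHAC1-iPS, -3.28 in 2-E, -2.79 in 2-B1, -1.33 in 2-C6 and 0.51 in 2-N, and between -0.14 and 0.09 in iHAC-free iPS. It was -0.77 in 20D17. The medians over all probes on these arrays lay between -0.20 and 0.10.

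Other genes of the same network gave the setting. In a list of 20 pluripotency genes 18 had a probe matched by gene name or symbol. Nanog and Fgf4 had no such match and were not analysed here. Of the 18 genes, 12 were called lower and 1 higher in iHAC1-iPS than in ES, where 14.3% of all probes were called in either direction. The largest decreases among the called genes were those of Dppa3 (-10.01 ± 0.80), a maternal factor and naive marker that was dim in 3 of the 4 clones (1-A3, 1-B and 1-D6), Dppa5a (-8.50 ± 1.03), Dnmt3l (-7.77 ± 1.00), a cofactor of DNA methylation, Dppa4 (-6.38 ± 1.23), dim in 1-A3, Mycn (-4.82 ± 0.84) and Utf1 (-4.01 ± 1.03). The gene that was higher, named after its value was seen, was Pou5f1 (Oct4), by 2.77 ± 0.49, and transcripts of the vector and of the cell's own gene were not told apart. Against ES 1 of 18 was called lower in iHAC2-iPS (Klf4, -2.33 ± 0.56), where 6.73% of all probes were called in either direction. Klf4 is also carried by the vector, and whether its probe detects transcripts of the vector was not tested. In iHAC-free iPS 0 of 18 were called against ES, where 0.366% of all probes were. Between iHAC1-iPS and iHAC2-iPS 10 of 18 were called lower and 1 higher (Pou5f1, 1.62), against 20% of all probes in either direction.

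The list of upstream signalling genes held 16 genes of the LIF, Wnt, Bmp and Fgf pathways. In iHAC1-iPS 2 of 16 were called lower than in ES and 0 higher, namely Bmp4 (-3.08 ± 0.67), a signal that supports self-renewal with LIF, and Tcf7l1 (-1.20 ± 0.20), a Wnt-controlled repressor of the naive network. This count is close to the 14.3% of all probes that were called in either direction. In iHAC2-iPS and iHAC-free iPS 0 of 16 were called, where 6.73% and 0.366% of all probes were called in either direction. The LIF receptor genes Lifr and Il6st and Stat3 were not called in any of the 3 comparisons with ES.

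Of 13 genes of the primed epiblast 1 was called lower and 0 higher in iHAC1-iPS than in ES, the DNA methyltransferase gene Dnmt3a (-2.44 ± 0.45). In iHAC2-iPS 1 was called lower, Sall2 (-2.34 ± 0.58), and in iHAC-free iPS 0 were called. The shares of all probes called in these comparisons were 6.73% and 0.366%. Of 17 measured relatives of the 8 genes, Prdm1 was called lower (-2.43 ± 0.29) and Tbx2 (1.18 ± 0.19) and Tcfcp2 higher in iHAC1-iPS than in ES. The close relatives Esrra (0.88 ± 0.17, limma adjusted p = 0.00385) and Nr5a1 (0.65 ± 0.18, limma adjusted p = 0.0249) were not called in that comparison, being less than 2-fold higher. Gbx1 (-0.71 ± 0.37, limma adjusted p = 0.199) was not called either. The counts of the primed genes (1 of 13) and of the relatives (3 of 17) stand beside the same 14.3% of all probes. In iHAC2-iPS against ES 1 of the 17 relatives was called, Prdm1 (-1.06, lower), where 6.73% of all probes were called.

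The probes of other genes whose levels ran most like each member over the 16 arrays were sought among 19694 probes with a gene symbol, and the correlations describe arrays that share groups and scan sessions. They were Dppa5a and Taf7 for Esrrb (r = 0.99 each), Fntb and Tcfcp2l1 itself for Zfp42 (0.98 each), Mageb16 and Nphs1 for Tcfcp2l1 (0.99 each), Sycp1 and Triml1 for Tcl1 (0.98 each) and Sgk2 and Rinl for Nr5a2 (0.98 each). For Nr0b1 they were Sde2 (0.94) and Pelp1 (0.93), for Gbx2 Ctnnal1 (0.95) and Mrm2 (0.92), and for Tbx3 Mtus2 (0.94) and Gfod1 (0.92). Among the members, Esrrb, Zfp42 and Tcfcp2l1 ran together (r = 0.97 to 0.99), whereas Gbx2 had r = 0.30 with Esrrb and 0.72 with Nr0b1, and Tbx3 had r = 0.14 with Nr0b1 and 0.71 with Nr5a2.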

How the data were processed

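Total RNA of 16 samples was labelled with Cy3 and hybridized by the authors to 1-colour Agilent whole mouse genome arrays. Per the file headers, the deposited scanner files were made with Agilent Feature Extraction 10.7.1.1 or 10.7.3.1, according to the scan day, and give intensity on a linear scale with the local background subtracted and no scaling between arrays. The authors normalized the data in GeneSpring GX 11, whose settings are not given in the sources used here, and deposited a value table on the log2 scale. Set against the scanner values, its columns had slopes and correlations of 1, it was centred for each probe, and its column medians lay between -0.096 and 0.066. Which samples the centring used stays unknown, and the table served as an alternative.

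Control and outlier spots were left out, spots of a probe were averaged, and log2 of the processed signal minus the array's 75th percentile was taken. The 31415 probes well above background on at least 1 array were fitted with limma 3.58.1 (R 4.3.3, lmFit and eBayes, 6 groups, 16 arrays), with Benjamini-Hochberg adjustment over all of them. Errors beside log2 differences are standard errors of that fit. Calls needed an adjusted p under 0.05 and a difference of at least 2-fold. Groups came from the sample titles. The steps were tested on simulated data.

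The iHAC-free lines are paired with the clones that they came from. Deviations from the group means had correlations of -0.066, -0.219, 0.034 and 0.08 within lines 2-B1, 2-C6, 2-E and 2-N, against -0.105 to 0.216 between lines. The alternatives were normexp, quantile normalization, the deposited table, and no filter or a strict filter (well above background on all arrays of either compared group). Others were the slide or the line of origin as a block, a fit of the compared groups alone, the mean of a gene's probes, rank correlation and leaving out each array. A further alternative, dim values raised to the lowest signal well above background on the array, was chosen after seeing the data.

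The members and gene lists were chosen with earlier results of these data known. All member probes were named. Counts over each list were given for iHAC1-iPS against ES, except for the neural markers, whose full count is not reported here, and over the marker lists for no other comparison. Values were given for at most 6 called genes of largest difference, and also for the uncalled relatives Esrra, Nr5a1 and Gbx1. For each member the 2 most like probes that were well above background on at least 8 arrays were given. Of the 7 ES cell markers 5 had a probe matched by gene name or symbol, all but Nanog and Fgf4. Of these, 3 were called lower and 1 higher in iHAC1-iPS than in ES, and all 7 markers are also in the pluripotency list.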

Additional observations from a re-analysis of the deposited data

Results flagged for a closer look

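Among the iHAC1-iPS clones, Nr0b1 in 1-A3 was at -1.36, while the other clones lay between 2.28 and 2.55. The gap was 0.931 of the range of the 4 clones, above the critical value of Dixon's test for 4 values. It was 1 value of 24 groups of 4 arrays examined, of which chance alone would give about 1.2. Without 1-A3 the difference of iHAC1-iPS minus iHAC2-iPS in Nr0b1 was 0.30, and the cause was not tested.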

How the results depend on the processing

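Of 640 values of single genes under alternatives, 609 kept their direction and their side of the threshold, 14 lost a call, 10 gained a call and 7 changed sign. The sign changes were those of Nr0b1 between iHAC-free iPS and ES with the slide as a random block (-0.09) and, with 1 array left out, Nr0b1 (-0.19 to 0.21) and Tcl1 (-0.21 to 0.25) in that comparison and Nr0b1 between iHAC1-iPS and iHAC2-iPS (-1.21 to 0.30). The count of members called in iHAC1-iPS against ES was 5 and ranged from 4 to 5 with 1 array left out. In iHAC2-iPS against ES it was 1, with 0 under quantile normalization, 0 with only the compared groups and 0 to 4 with 1 array left out. Between the vectors it was 5 (4 to 6). In iHAC2-iPS against iHAC-free iPS it was 0, with 0 to 3 when 1 array was left out, and in iHAC-free iPS against ES it was 0 throughout these runs. The order iHAC1-iPS, iHAC2-iPS, iHAC-free iPS held in 7 genes under each scaling tried. Of the 16 pairs of a member and a most like gene, 0 were again among the 2 nearest of that member by Spearman's rho, and the cause was not tested.

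Counts over all probes moved more. For iHAC1-iPS against ES (4483) they were 2438 with the slide as a fixed block, 2365 with normexp and 1867 to 4690 with 1 array left out. For iHAC2-iPS against ES (2113) they were 4450 without a filter, 3558 with dim values raised, 20 with only the compared groups, 3214 with the slide as a random block, 945 with normexp and 333 to 3722 with 1 array left out. For iHAC-free iPS against ES (115) they were 65, 262, 9, 722 and 173 in the same order, 275 with the strict filter and 16 to 57 with 1 array left out. Between the vectors (6270) normexp gave 2618, with 5010 to 7345 when 1 array was left out. For iHAC2-iPS against iHAC-free iPS (242) they were 159 with the slide as a fixed block, 136 with line of origin as the replicate block, 102 with only the compared groups and 41 to 971 with 1 array left out. The pairing by line of origin changed no call of a member, and the causes of these shifts were not tested. With 2 ES lines, and MEF and 20D17 on 1 array each, the ES spread rests on 1 difference, and folds against dim values are limited by the background.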
